A study of Danio rerio with 56 samples.

Results

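Germ plasm organiser and oocyte histone genes were followed in whole zebrafish: buc, org, h1m, h2af1o and rbpms2b. The genes were looked up by symbol among the 32520 genes of the deposited raw count table, and the 5 names led to 6 gene IDs. These were buc (ENSDARG00000096095), org (ENSDARG00000076474), h1m (ENSDARG00000102892), h2af1o (ENSDARG00000098739, listed under the symbol h2af1al) and 2 genes that both carry the symbol RBPMS2, ENSDARG00000045930 and ENSDARG00000079578. Which of the RBPMS2 genes is rbpms2b cannot be told from the sources used here, so both are described.

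Each library holds polyadenylated RNA of 25 pooled AB-strain fish, whole body. Their sex is not in the labels. Fish of 2, 8, 16, 32 or 64 d were kept in water with the solvent DMSO alone, with exemestane (EM) at 10 µg/L, with 17β-estradiol (E2) at 100 ng/L, or with EM and E2 together (EM+E2), and all 4 treatments contained DMSO. Exemestane blocks aromatase, which turns androgens into oestrogens, and E2 is the main oestrogen. There were 3 libraries per group, but 2 for DMSO and for EM+E2 among 2 d fish and 2 for each of the other treatments than DMSO among 64 d fish. Whether the pools of 1 group were raised apart is not in the labels, so a p-value here reflects library-to-library spread alone, which may be technical. The 55 libraries used had between 4039030 and 10144213 counted reads (median 9107346). A level is given in counts-per-million units (CPM), a scale on which 1 CPM was about 4 to 10 reads. A level in a whole-body pool is a share of the RNA of all organs, in which fewer egg cells and less of a transcript per egg cell cannot be told apart.

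Bucky ball, the product of buc, organises the Balbiani body of the zebrafish oocyte, the aggregate of RNA, protein and mitochondria from which the germ plasm that later specifies germ cells is laid down. Rbpms2 proteins bind RNA, act with Bucky ball in the oocyte and are also made outside the gonad, in heart and retina among other places. The gene h1m encodes the linker histone that oocytes and early embryos use in place of somatic H1, h2af1o encodes an oocyte variant of histone H2A described in fish, and org is an oogenesis-related gene named for its expression in oocytes. Young zebrafish of both future sexes pass through a stage in which the gonad holds early oocytes.

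Before 32 d the 4 oocyte genes buc, org, h1m and h2af1o were at the edge of detection. At 2 d the linker histone gene h1m had a read in 10 of 10 libraries, 59 reads in all, or 0.724 CPM with an exact 95% Poisson interval of 0.551 to 0.934. At 8 d it had 16 reads in 5 of 12 libraries (0.149 CPM, 0.0854 to 0.243), and at 16 d it had 26 reads in 8 of 12. Such intervals cover counting error only. The h1m level at 2 d therefore lay above that at 8 d by more than counting error, although library by library it ranged from 0.214 to 1.51 CPM.

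The organiser gene buc had 9, 11 and 27 reads in all at 2, 8 and 16 d, and never more than 7 in a library. The gene org had 14, 10 and 15 reads, and h2af1o had 3, 14 and 10. These amounts were too low to compare treatments at 2, 8 or 16 d: of the 4 oocyte genes only h1m passed the filter on low counts there, at 2 d, and its adjusted p against DMSO was 0.999 or above in the 3 treatments. Within DMSO, h1m had 13 and 2 reads in the 2 libraries of 2 d and 0, 0 and 1 in the 3 libraries of 8 d. Its level fell by a log2 fold change of -4.27 (SE 1.29, adjusted p 0.0313). This was 1 call of 6 gene IDs tested, while 11.0% of all 22148 genes were called lower. All DMSO ages were filtered and fitted together. The 4 oocyte genes passed the low-count filter there through DMSO libraries of later ages, in which they are high. The call of h1m is therefore a description. The call rests on few reads and ended without DMSO 2 d replicate 1 (-2.05, adjusted p 0.489), without DMSO 8 d replicate 1 or 2 (-3.83 and -3.81, adjusted p 0.0946 and 0.096) and with library-size scaling (-4.04, adjusted p 0.0548). From 8 to 16 d in DMSO none of the 6 IDs was called by edgeR (1 at an unadjusted p under 0.05, and 1 by DESeq2). Of all genes 4.62% were called. The 4 oocyte genes passed the filter in the same way here, so these counts are descriptions too.

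**Figure D1:**
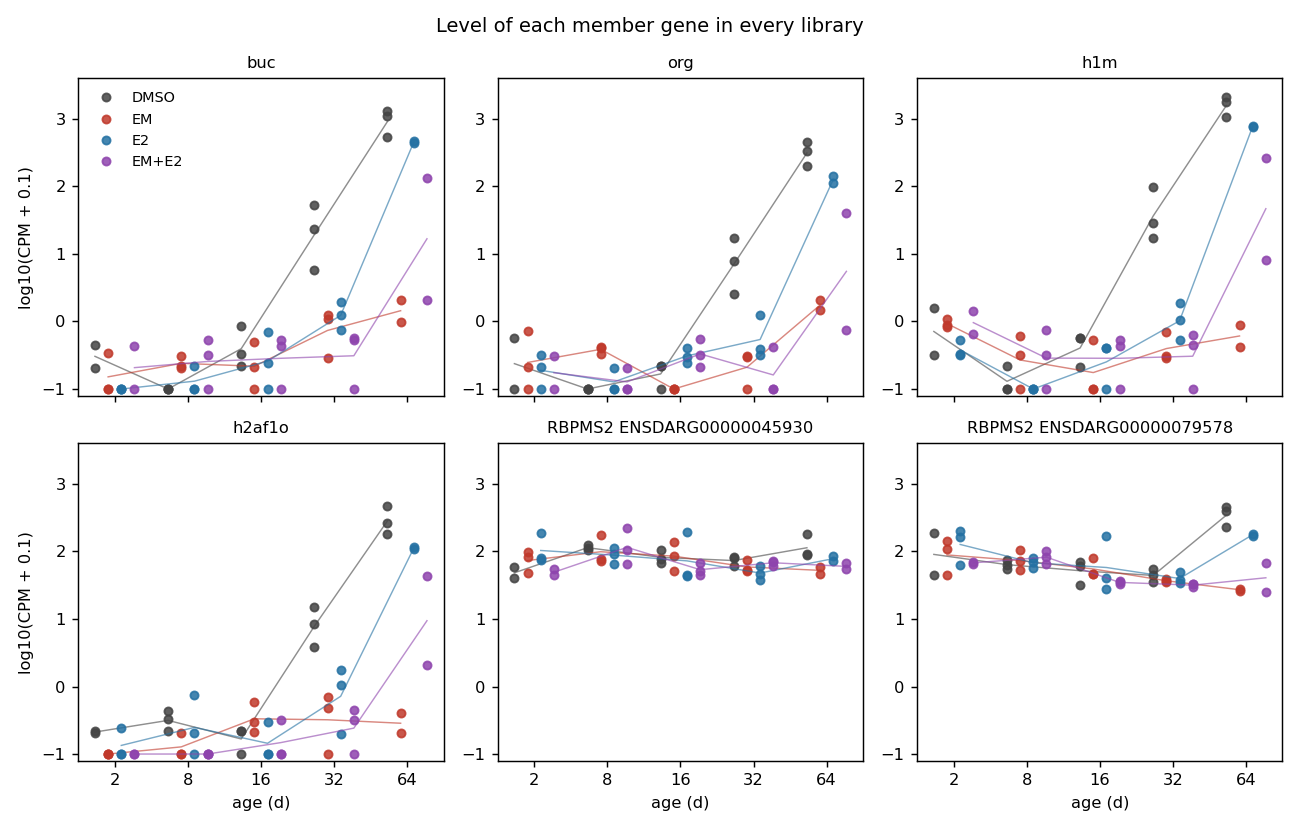
Level of each gene in every library, as log10(CPM + 0.1), at each age in days (ages evenly spaced), with 1 point per library coloured by treatment and lines through the group means of the plotted values. The 4 oocyte genes stay near 1 CPM or below up to 16 d and reach 107 CPM or more at 64 d in DMSO and E2, while both RBPMS2 genes lie between 24.8 and 451 CPM throughout.

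In solvent controls the oocyte genes appeared between 16 and 32 d. The 3 DMSO libraries of 32 d had 52.2, 5.74 and 23.5 CPM of buc, against a highest level of 0.759 CPM in any library of 16 d. They had 17.2, 2.46 and 7.76 CPM of org. Of h1m they had 99.2, 17.4 and 28.3 CPM, and of h2af1o 14.9, 3.69 and 8.31 CPM. Replicate 1 was highest and replicate 2 lowest for all 4 genes, and the lowest DMSO library of 32 d was still above every DMSO library of 16 d. How many of all genes had such an order was not counted. From 16 to 32 d buc rose by a log2 fold change of 6.28 (SE 0.77, adjusted p 0.00179) and h2af1o by 6.84 (SE 0.66, adjusted p 0.000212). The genes org and h1m rose by 6.82 and 7.25 (adjusted p 0.00318 and 0.000877). Of all genes 1.68% were called higher. The 4 oocyte genes had 0 to 7 reads in each DMSO library of 16 d and passed the low-count filter through the later libraries in which they are high, so their 4 calls are a description. The calls passed whichever DMSO library was left out. Over all genes 372 rose and 70 fell, or 197 and 78 when libraries were scaled by their size alone. The RBPMS2 genes were at 60.5, 81.7 and 79.7 CPM (ENSDARG00000045930) and 44.8, 54.1 and 35.4 CPM (ENSDARG00000079578) at 32 d and overlapped their levels at 16 d (adjusted p 0.907 and 0.965).

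A second rise followed between 32 and 64 d. Among the 64 d controls buc was at 1304, 537 and 1100 CPM, org at 454, 200 and 338 CPM and h2af1o at 474, 184 and 264 CPM. The linker histone gene h1m reached 2109, 1068 and 1752 CPM. Every 64 d library lay above every 32 d library for each of the 4 genes, though the share of all genes in such an order was not counted. The rises were 5.07 for buc (SE 0.67, adjusted p 0.000723), 5.04 for org (SE 0.68, adjusted p 0.000814), 4.92 for h1m (SE 0.73, adjusted p 0.00087) and 4.92 for h2af1o (SE 0.48, adjusted p 0.000188) on the log2 scale.

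ENSDARG00000079578, one of the RBPMS2 genes, joined the rise at 64 d, with 451, 231 and 395 CPM in the DMSO libraries (log2 fold change 2.53, SE 0.61, adjusted p 0.0108). The other, ENSDARG00000045930, was at 181, 88.7 and 91.2 CPM, above each 32 d library, but did not pass (0.30, SE 0.43, adjusted p 0.652). So 5 of 6 gene IDs were called higher, where 10.4% of all genes were. The median change over all genes was -0.31 with the scaling used and -0.13 by library size alone, and the genes called higher and lower were 2307 and 2390, or 2335 and 1442 by library size alone. The 5 calls held under both.

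The share that each gene took of the summed reads of the 4 oocyte genes was compared between libraries. In the 8 libraries with at least 500 reads of them, all from DMSO, E2 or EM+E2, buc took 27.0 to 34.6% of their summed reads, org 7.84 to 11.4%, h1m 41.7 to 55.0% and h2af1o 7.41 to 12.3%. Libraries with fewer reads went outside these ranges. DMSO 32 d replicate 2 (214 reads) had 19.6% buc and 59.35% h1m. EM+E2 64 d replicate 1 (116 reads) had 15.5% buc and 63.8% h1m. Such shares also depend on transcript length, so they compare libraries and not genes. Between the 3 DMSO libraries of 32 d and the 3 of 64 d the share of buc was 27.6% ± 7.55 and 29.6% ± 2.44 (SD, n = 3 each), and that of h1m 51.7% ± 9.07 and 51.0% ± 2.58. The shares of org were 9.74% ± 1.55 and 10.1% ± 0.339, and of h2af1o 11.0% ± 2.49 and 9.27% ± 1.64. A two-sided exact permutation test gave p 0.3 to 0.9, each 0.9 after adjustment over the 4 genes, but its 20 arrangements cannot give less than 0.1, so it says nothing about whether the shares were stable. The summed level of the 4 genes meanwhile went from 93.5 ± 80.3 to 3261 ± 1188 CPM.

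**Figure D2:**
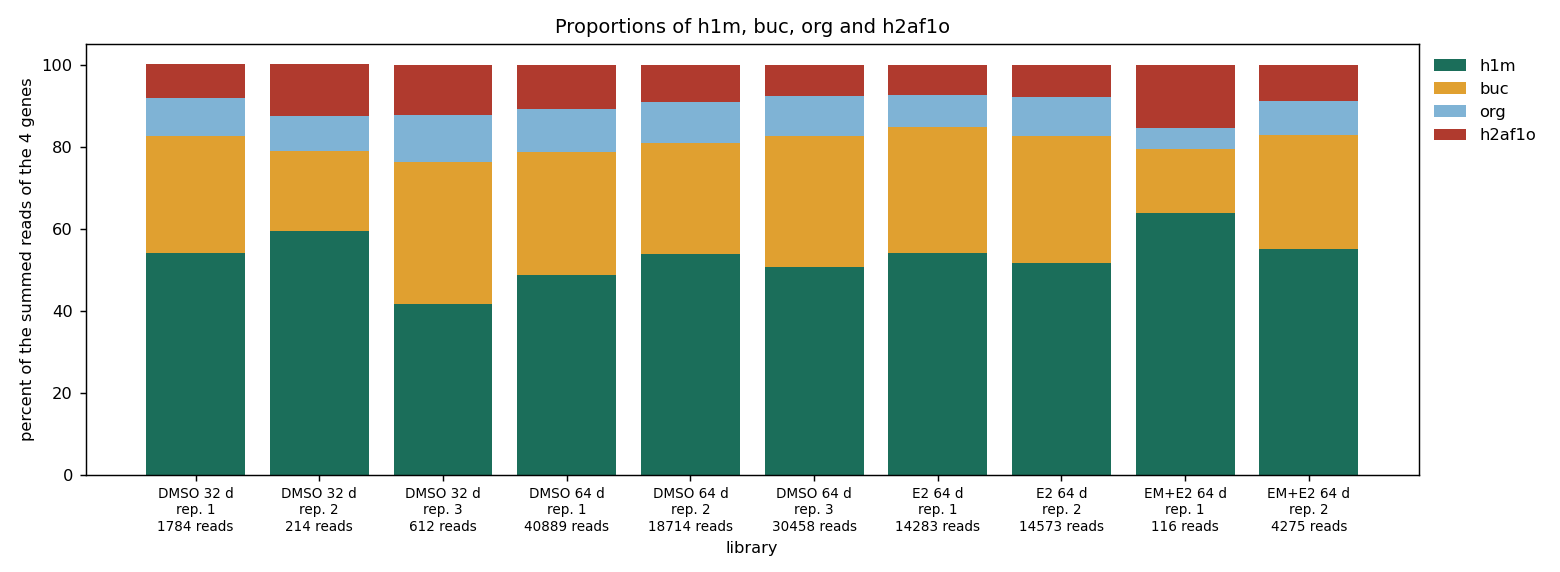
Percent of the summed reads of h1m, buc, org and h2af1o taken by each gene, 1 bar per library with at least 50 such reads in DMSO at 32 d and in DMSO, E2 and EM+E2 at 64 d. In libraries with at least 500 reads h1m takes 41.7 to 55.0% and buc 27.0 to 34.6%, and the bars differ most in the libraries with fewest reads.

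When the RBPMS2 genes were summed with the others the proportions shifted with age. Over DMSO and E2 libraries, 6 at 32 d and 5 at 64 d, ENSDARG00000045930 went from 45.2% ± 12.6 to 3.78% ± 0.972 of the reads of the 6 IDs, and ENSDARG00000079578 from 33.0% ± 13 to 9.93% ± 0.527. The share of h1m went from 10.7% ± 13.04 to 44.6% ± 1.56, and that of buc from 6.45% ± 7.25 to 26.0% ± 1.69. The shares of org and h2af1o rose from 2.27% ± 2.31 to 8.22% ± 0.946 and from 2.44% ± 2.0 to 7.45% ± 1.32. These means pool treatments that differed at 32 d: h1m took 20.1% ± 12.6 in DMSO and 1.25% ± 0.923 in E2 (n = 3 each), and buc 11.5% ± 7.40 and 1.43% ± 0.886. The shift restates the rises given for the single genes and is no separate support for them. In a two-sided exact permutation test with ages permuted within treatment each of the 6 differences had p 0.005, also after adjustment over the 6 IDs, the smallest p that the 200 arrangements allow. Within DMSO or E2 alone h1m differed by 24.28 and 43.69 percentage points and no ID passed (adjusted p 0.1 for each, in designs that cannot give less).

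Exemestane was compared with the solvent to ask what inhibiting aromatase does during sex development. At 32 d the EM libraries lacked the first appearance of the oocyte genes. They had 1.16, 0.19 and 0.99 CPM of buc and 0.212, 0 and 0.198 CPM of org. For h1m the levels were 0.212, 0.19 and 0.594 CPM, and for h2af1o 0, 0.38 and 0.594 CPM. Each EM library was under each DMSO library for the 4 genes, an order whose share over all genes was not counted for EM. The log2 fold changes were -5.24 for buc (SE 0.84, adjusted p 0.0259), -6.03 for org (SE 1.06, adjusted p 0.0425) and -7.46 for h1m (SE 0.91, adjusted p 0.0154), while h2af1o did not pass (-5.16, SE 1.13, adjusted p 0.182). The 3 EM pools together had 6 reads of h1m, and the pooled level in DMSO was 170 times that in EM (exact 95% interval 77.9 to 464). For org EM had 3 reads and the ratio was 64.4 (21.8 to 315). The intervals of these ratios cover counting error and leave out the spread between libraries.

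Neither RBPMS2 gene separated at 32 d: ENSDARG00000045930 was at 74.4, 53.4 and 51.5 CPM in EM and ENSDARG00000079578 at 36.3, 35.5 and 38.4 CPM (log2 fold changes -0.83 and -0.84, adjusted p 0.658 and 0.664). Of 6 gene IDs 3 were thus called lower, where 0.217% of all genes were. The oocyte genes passed the low-count filter at 32 d through the DMSO libraries in which they are high, so this count is a description. It fell to 0 without any 1 of the 3 EM libraries and to 1 without DMSO 32 d replicate 1 or 3. It was also 0 with library-size scaling (adjusted p 0.118 for buc, 0.16 for org and 0.0661 for h1m).

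At 64 d the EM libraries were again under the solvent libraries in the 4 oocyte genes. In the EM libraries buc was at 0.897 and 1.99 CPM, org at 1.99 and 1.36 CPM, h1m at 0.798 and 0.315 CPM and h2af1o at 0.299 and 0.105 CPM. All of these were below 2 CPM, whereas the lowest DMSO library had 184 CPM or more of each gene. How many of all genes had such an order was not counted for EM at this age either. The fall was -9.44 for buc (SE 1.66, adjusted p 0.00374), -7.64 for org (SE 1.41, adjusted p 0.00442), -11.52 for h1m (SE 1.63, adjusted p 0.00226) and -10.51 for h2af1o (SE 1.49, adjusted p 0.00226). In pooled reads, the level in DMSO was 683 times that in EM for buc (exact 95% interval 473 to 1028) and 196 times for org (139 to 285). It was 2918 times for h1m (1631 to 5846, 11 reads in EM) and 1508 times for h2af1o (589 to 5534, 4 reads in EM). Here too the intervals cover counting error and leave out the spread between libraries. The call for org was at the threshold when EM 64 d replicate 1 or 2 was left out (-8.00 and -7.35, adjusted p 0.0501 and 0.0538).

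Both RBPMS2 genes were lower in EM at 64 d. ENSDARG00000079578 was at 26.1 and 28.0 CPM, against 231 CPM in the lowest DMSO library, and fell by 3.77 on the log2 scale (SE 0.47, adjusted p 0.00222). ENSDARG00000045930 was at 46.1 and 59.7 CPM, against a lowest DMSO level of 88.7 CPM (log2 fold change -1.25, SE 0.35, adjusted p 0.0251). Its call ended without EM 64 d replicate 1 or 2 (-1.12 and -1.39, adjusted p 0.162 and 0.103) and with all ages and treatments in 1 fit (-0.99, adjusted p 0.226). Together 6 of 6 gene IDs were called lower, where 17.6% of all genes were. As a description, since the 4 oocyte genes among them passed the filter with DMSO high, the 6 IDs had a median log2 fold change of -8.54. That of all 21383 genes was 0.21, which other scalings put between 0.06 and 0.27 and a single fit of all ages at 0.45.

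**Figure D3:**
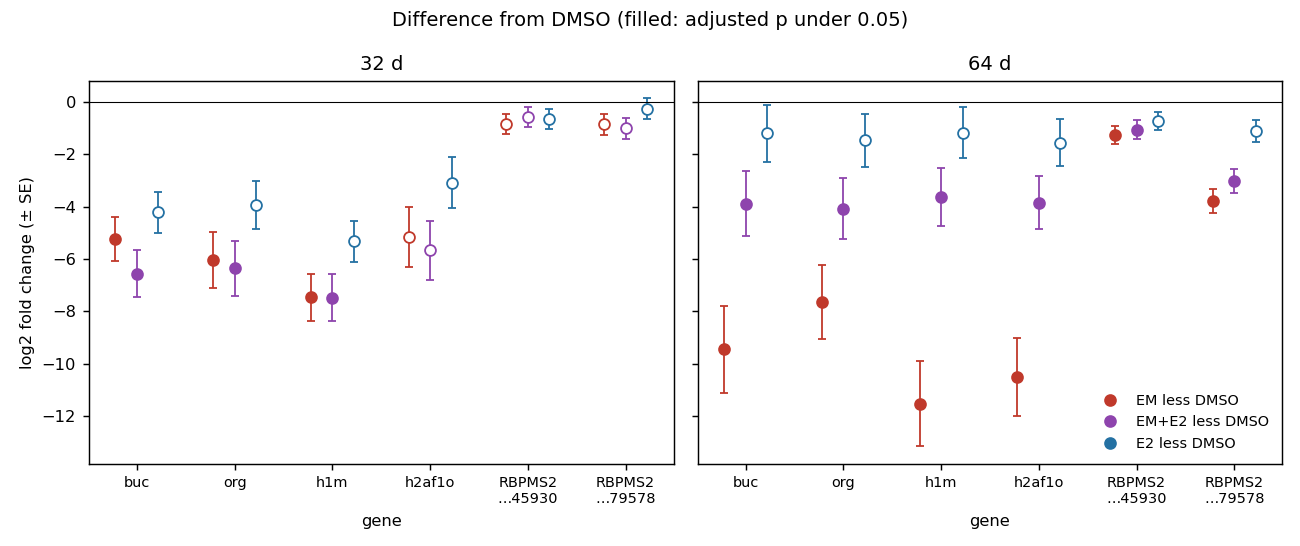
Log2 fold change from DMSO with its SE for each gene at 32 d and 64 d in EM, EM+E2 and E2, with filled points for an adjusted p under 0.05. At 64 d all EM and EM+E2 points are filled and lie below 0, with EM at -11.52 for h1m, and no E2 point is filled.

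Few reads remained in EM at 64 d. The 40 and 36 reads of the 4 oocyte genes in the EM libraries were org for 50.0 and 36.1%, h1m for 20 and 8.33%, and buc for 22.5 and 52.8%. From 32 to 64 d within EM, org was at 3 and 33 reads, a ratio of 11.1 (exact 95% interval 3.49 to 56.6, counting error only). The fitted change was 3.64 (SE 1.19, adjusted p 0.363). Neither buc (1.08, adjusted p 0.925) nor the RBPMS2 genes (0.05 and -0.22, adjusted p 0.997 and 0.986) passed. Of the 4 IDs tested within EM none was called by edgeR, 1 had an unadjusted p under 0.05, and 0.227% of all genes were called, 34 higher and 17 lower, or 15 and 21 by library size alone. The genes h1m and h2af1o were too low to test there.

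The EM effect was compared between ages in a single fit. For ENSDARG00000079578 the log2 fold change was more negative at 64 d than at 32 d, with a difference of -3.01 (SE 0.62, adjusted p 0.00715), 1 call of 6, where 6.25% of all genes were called lower. That call ended without EM 64 d replicate 1 (-3.00, adjusted p 0.0658) or 2 (-3.01, adjusted p 0.0618). The differences for buc, h1m and h2af1o were -4.28 (SE 1.56), -4.11 (SE 1.83) and -5.32 (SE 2.16) and did not pass (adjusted p 0.103, 0.175 and 0.14). For org it was -1.68 (SE 2.28, adjusted p 0.689).

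With E2 alone the oocyte genes were lower than in solvent at 32 d without passing the test. The E2 libraries had 1.15, 0.658 and 1.87 CPM of buc, 1.15, 0.219 and 0.296 CPM of org, 0.962, 0.439 and 1.77 CPM of h1m and 0.962, 1.65 and 0.0986 CPM of h2af1o. Every E2 library was under every DMSO library for these 4 IDs and for neither RBPMS2 gene, where 4.1% of all genes had such an order. The oocyte genes passed the low-count filter at 32 d through the DMSO libraries in which they are high. This order and the counts of IDs in this paragraph are therefore descriptions. The log2 fold changes were -4.21 for buc (SE 0.79, adjusted p 0.106), -3.93 for org (SE 0.91, adjusted p 0.275), -5.32 for h1m (SE 0.78, adjusted p 0.0867) and -3.08 for h2af1o (SE 0.96, adjusted p 0.579). For the RBPMS2 genes they were -0.65 and -0.25 (adjusted p 0.592 and 0.836). Of all genes edgeR called 0.0%, with 1817 at an unadjusted p under 0.05 (4 of the 6 IDs), and DESeq2 called 158. DESeq2 and a single fit of all ages called 3 of the 6 IDs, as did edgeR without DMSO 32 d replicate 2, the library lowest in the 4 genes. Over all genes the single fit called 90, and edgeR with 1 library left out called 0 to 156. DMSO 32 d replicate 2 also had a read in 20791 genes, the fewest of the 55 libraries.

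At 64 d E2 fish had high levels of the oocyte genes. Their 2 libraries were at 444 and 465 CPM of buc, 113 and 142 CPM of org, 782 and 770 CPM of h1m and 107 and 118 CPM of h2af1o. All 6 IDs were lower in each E2 library than in each DMSO library, an order found in 15.7% of all genes. The mean of DMSO was 2.16 times that of E2 for buc, 2.59 times for org, 2.12 times for h1m and 2.73 times for h2af1o. ENSDARG00000045930 was at 85.2 and 71.9 CPM in E2 and ENSDARG00000079578 at 171 and 184 CPM. No difference passed: the log2 fold changes were -1.19 for buc (SE 1.08), -1.47 for org, -1.17 for h1m, -1.55 for h2af1o, -0.72 for ENSDARG00000045930 and -1.11 for ENSDARG00000079578, with adjusted p from 0.128 to 0.487. Of all genes edgeR called 0.00468%, a single gene, with 5992 at an unadjusted p under 0.05 (1 of the 6 IDs), while DESeq2 called 2453 and 1 of the 6 IDs. With reads recovered from the normalized table edgeR called 415 genes.

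Within E2 the rise from 32 to 64 d was called for the 4 oocyte genes, at 8.20 for buc (SE 0.86, adjusted p 0.000366), 7.61 for org (SE 0.79, adjusted p 0.000198), 9.19 for h1m (SE 0.77, adjusted p 0.000151) and 6.54 for h2af1o (SE 1.10, adjusted p 0.00664). The call of h2af1o ended without E2 32 d replicate 1 (6.56, adjusted p 0.051). Of all genes 1.11% were called higher, and the oocyte genes passed the low-count filter here through the libraries of 64 d, so the count of 4 is a description. Neither RBPMS2 gene passed (0.31 and 1.77, adjusted p 0.922 and 0.493). The E2 effect itself did not differ between the ages by the test. Its change was 2.90 for buc, 2.43 for org, 4.03 for h1m and 1.46 for h2af1o (adjusted p 0.139 to 0.522), edgeR called 0.0% of all genes with 4449 at an unadjusted p under 0.05, and buc and h1m were among the latter.

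EM and E2 together gave levels near those of EM at 32 d. The EM+E2 libraries had 0.429, 0 and 0.467 CPM of buc, 0.322, 0 and 0 CPM of org, 0.537, 0 and 0.35 CPM of h1m and 0.215, 0 and 0.35 CPM of h2af1o. Replicate 2 had no read of any of the 4 genes, which allows up to 3 reads of each. Against DMSO the log2 fold changes were -6.55 for buc (SE 0.91, adjusted p 0.0207), -6.35 for org (SE 1.06, adjusted p 0.0322) and -7.47 for h1m (SE 0.89, adjusted p 0.0118), and h2af1o did not pass (-5.66, SE 1.13, adjusted p 0.0902). ENSDARG00000045930 was at 69.6, 73.3 and 61.6 CPM and ENSDARG00000079578 at 29.96, 32.6 and 32.4 CPM (adjusted p 0.837 for both). So 3 of 6 IDs were called lower, where 0.24% of all genes were, and 0 without any 1 EM+E2 library, 1 without DMSO 32 d replicate 1 and 0 with library-size scaling. The count is a description here too, as the oocyte genes passed the low-count filter at 32 d through the DMSO libraries in which they are high.

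Set against EM, the EM+E2 fish of 32 d overlapped in the 4 oocyte genes (log2 fold changes -1.31 to -0.01, each adjusted p 1), with 0.0% of all genes called by edgeR, 615 at an unadjusted p under 0.05 and 9 called by DESeq2. Set against E2 they were lower without passing, at log2 fold changes of -2.58 to -2.15 in the 4 oocyte genes (adjusted p 0.456 to 0.462). There edgeR called 0.0% of all genes, with 2321 at an unadjusted p under 0.05, 3 of the 6 IDs among them, and DESeq2 called 58.

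At 64 d the 2 EM+E2 libraries differed from each other more than most groups differed. Replicate 1 had 1.98 CPM of buc, 0.66 CPM of org, 8.13 CPM of h1m and 1.98 CPM of h2af1o, and replicate 2 had 135, 40.1, 266 and 42.7 CPM of the same genes. Replicate 2 was thus 68.4 times replicate 1 in buc, 60.8 times in org, 32.7 times in h1m and 21.6 times in h2af1o, but 2.68 times in ENSDARG00000079578 (24.8 and 66.6 CPM) and 1.22 times in ENSDARG00000045930 (54.3 and 66.4 CPM). In the sum of the 4 oocyte genes replicate 1 stood at 12.8 CPM, above the 3.78 and 3.99 CPM of EM, and replicate 2 at 485 CPM, below the 1446 and 1494 CPM of E2. A group mean therefore describes neither library.

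Against DMSO all 6 IDs were called lower at 64 d in EM+E2, where 16.9% of all genes were. This count is a description, since the 4 oocyte genes were filtered together with the DMSO libraries in which they are high. The values were -3.88 for buc (SE 1.25, adjusted p 0.0408), -4.07 for org (SE 1.15, adjusted p 0.026), -3.63 for h1m (SE 1.10, adjusted p 0.0329) and -3.84 for h2af1o (SE 1.0, adjusted p 0.019). ENSDARG00000079578 was at -3.01 (SE 0.45, adjusted p 0.00418) and ENSDARG00000045930 at -1.05 (SE 0.35, adjusted p 0.0475). Without DMSO 64 d replicate 1 the calls of buc, org, h1m and ENSDARG00000045930 ended (-3.69, -3.85, -3.49 and -0.70, adjusted p 0.0844, 0.0574, 0.0705 and 0.0742), and without replicate 3 that of buc did (adjusted p 0.053). ENSDARG00000045930 did not pass with library-size scaling, without the filter or in a single fit of all ages (-0.99, -1.04 and -0.80, adjusted p 0.0652, 0.0518 and 0.336), nor without EM+E2 replicate 1 or 2 (-0.92 and -1.18, adjusted p 0.241 and 0.125). Leaving out each EM+E2 library in turn moved the 4 oocyte genes most, between -8.95 and -2.90 for buc.

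Against EM at 64 d the EM+E2 fish were higher by 5.56 in buc (SE 1.45), 3.57 in org (SE 1.24), 7.89 in h1m (SE 1.46) and 6.67 in h2af1o (SE 1.40), and none passed (adjusted p 0.371 to 0.962). Both EM+E2 libraries were above both EM libraries for h1m and h2af1o, while buc and org overlapped. The share of all genes in such an order was not counted for this comparison. By edgeR 0.0% of all genes were called, with 761 at an unadjusted p under 0.05 (the 4 oocyte genes among them), whereas DESeq2 called 158 and a single fit of all ages 99, each with 3 of the 6 IDs. Without EM+E2 64 d replicate 1, the lower library, the group holds 1 library. The fit assumes that library to vary like the other groups, so the calls of that fit are not given.

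Compared with E2 the EM+E2 fish of 64 d were lower, with log2 fold changes of -2.69 in buc, -2.60 in org, -2.46 in h1m, -2.29 in h2af1o and -1.91 in ENSDARG00000079578 (adjusted p 0.264 to 0.554). Again edgeR called 0.0% of all genes, with 1952 at an unadjusted p under 0.05 (4 of the 6 IDs), and DESeq2 called 314 genes and 1 ID. Without EM+E2 64 d replicate 2, the higher library, a lone library is again assumed to vary like the other groups. The calls of that fit are not given either.

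From 32 to 64 d within EM+E2, buc rose by 7.92 (SE 1.43, adjusted p 0.0245) and h1m by 8.93 (SE 1.33, adjusted p 0.0122), 2 of 5 IDs tested, where 0.402% of all genes were called higher. This count too is a description, since both genes passed the filter through the 64 d libraries. The change of h2af1o was 6.94 (adjusted p 0.0672). Without EM+E2 64 d replicate 2 the values for buc and h1m were 2.87 and 4.93 and neither passed. No ID passed without any 1 of the EM+E2 libraries of 32 d. The EM+E2 effect was not called to differ between 32 and 64 d for any of the 6 IDs by edgeR (2 at an unadjusted p under 0.05), where 2.72% of all genes were. The nearest was ENSDARG00000079578 (-2.11, SE 0.61, adjusted p 0.0654).

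The RBPMS2 genes behaved unlike the 4 oocyte genes and unlike each other. Both had reads in all 55 libraries, ENSDARG00000045930 at 38.1 to 223 CPM and ENSDARG00000079578 at 24.8 to 451 CPM. At 2 d the level of ENSDARG00000045930 had a median of 66.0 CPM and that of ENSDARG00000079578 of 89.1 CPM, at 8 d 105 and 70.0 CPM. In reads per library, ENSDARG00000079578 was 2.49 to 4.34 times ENSDARG00000045930 in DMSO and 2.0 to 2.56 times in E2 at 64 d. In EM at 64 d the ratio was 0.469 and 0.567, within the range of all groups at 32 d, 0.431 to 0.987. The 2 EM+E2 libraries of 64 d were at 0.458 and 1.0, the higher ratio in the library with more oocyte transcripts. At 2 d the ratio spread from 0.846 to 3.19, so a ratio over 1 was not found only with oocyte transcripts.

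Over the 55 libraries the levels on a scale of log2(CPM + 1) followed each other closely among buc, org, h1m and h2af1o, with Pearson's r of 0.982 to 0.990 for the 6 pairs. With these 4 genes ENSDARG00000079578 had r of 0.513 to 0.561 and ENSDARG00000045930 of 0.101 to 0.159, and the RBPMS2 genes had 0.603 with each other. These values are descriptions, since the libraries share ages and treatments.

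**Figure D4:**
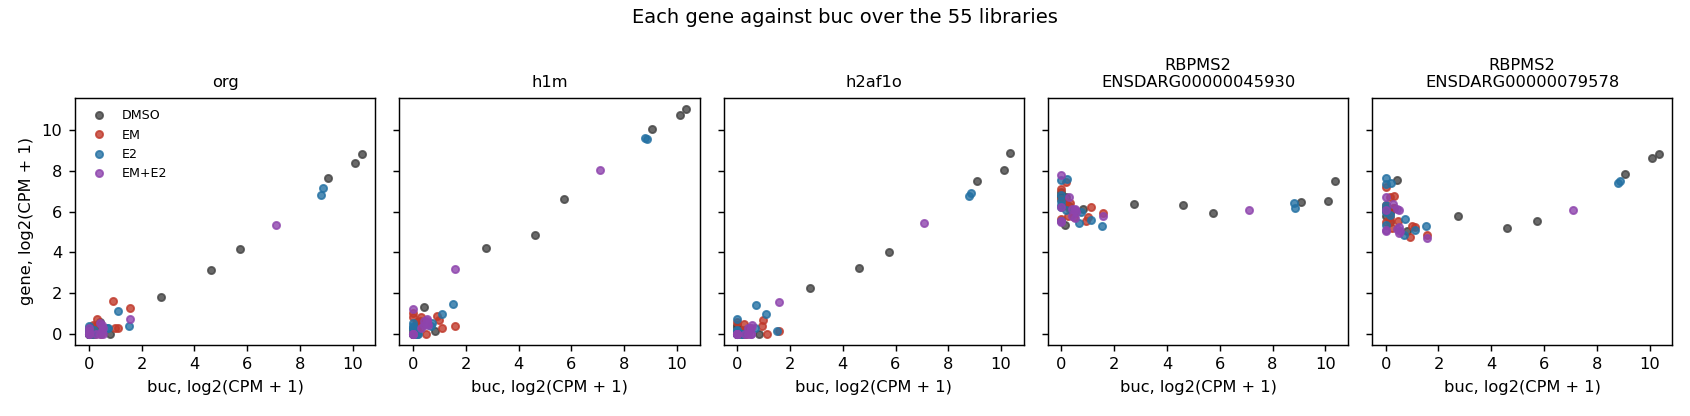
Level of each other gene against buc over the 55 libraries, both as log2(CPM + 1), with points coloured by treatment. The genes org, h1m and h2af1o lie along a line with buc (r 0.982 to 0.990 among the 4), and the RBPMS2 genes keep a base level where buc is near 0.

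Likeness was ranked among 15874 named genes with a mean of at least 5 CPM in some group. The 6 IDs and genes without a symbol or with a clone or placeholder name were left out. Most like the 6 IDs by mean r were CPEB1, which controls polyadenylation of stored oocyte RNA (0.806), and the egg envelope gene zpax2 (0.80). Next came tmsb5 of the thymosin beta family (0.793), the cyclin gene CCNA1 (0.79) and the egg envelope gene zp2.1 (0.788). The nearest to buc were cldnd (0.992), zp3a.1 (0.991) and PABPC1L, an embryonic poly(A)-binding protein gene (0.99). The nearest to org were CPD (0.99), zp2.1 (0.989) and slbp2, the histone stem-loop binding protein gene of oocytes (0.989). For h1m they were zp3a.1 (0.993), zp2.2 (0.992) and cldnd (0.991), and for h2af1o slbp2 (0.991), ca15b (0.991) and zp3a.1 (0.99). The order of these names is fragile: with log2(CPM + 0.1) 1 of the 5 names by mean r recurred, and with the 32 and 64 d libraries alone 2 did.

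The RBPMS2 genes had other neighbours in this ranking. Nearest to ENSDARG00000079578 were zmym4.1 (0.928), parn, the gene of a poly(A)-specific ribonuclease (0.907), and VSTM2L (0.903). Nearest to ENSDARG00000045930 were OXR1 (0.87), TMEM266 (0.861) and dele1 (0.851). At 64 d parn was at 314 ± 101 CPM in DMSO (SD, n = 3) and 26.1 ± 3.11 CPM in EM (n = 2), a log2 fold change of -3.63 (SE 0.43, adjusted p 0.00217). Since parn was picked by its likeness to ENSDARG00000079578 in these same libraries, this fall restates the likeness and is no separate result.

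Other genes of the germ plasm and the Balbiani body, 21 IDs, changed less uniformly than the 4 oocyte genes. In EM at 64 d 10 fell and 2 rose, with a median log2 fold change of -1.52 (all genes 0.21). Of all genes 17.6% fell and 13.6% rose there, so the 2 that rose are no more than the share over all genes. Genes near 0 CPM in EM, such as NANOS3 and ca15b, passed the low-count filter through libraries in which they are high. The count of 10 is therefore a description. The falling genes named next were picked by the smallest p in EM against DMSO at 64 d. NANOS3, whose product keeps germ cells alive, fell from 28.7 ± 10.4 to 0.207 ± 0.152 CPM (-7.10, SE 1.05, adjusted p 0.00231). Another, ca15b, whose RNA marks germ plasm in zebrafish, fell from 318 ± 187 to 0.202 ± 0.137 CPM (-10.54, SE 1.64, adjusted p 0.00253), and rgs14a from 21.0 ± 9.82 to 2.87 ± 0.248 CPM (-2.94, adjusted p 0.00245). The 2 that rose were nanos1 (1.21, adjusted p 0.00959) and KIF5B, a kinesin motor gene (1.08, adjusted p 0.0222), named here after their values were seen. The list holds another gene with the symbol KIF5B, which was not called higher. In EM+E2 11 fell and 2 rose (median -2.09, all genes 0.15, of which 16.9% fell and 13.6% rose). In E2 none was called (median -0.97), where edgeR called 0.00468% of all genes. At 32 d 18 were tested and none was called in any treatment (medians -0.89 in EM, -0.75 in E2 and -0.38 in EM+E2). Of all genes 0.217% were called lower in EM at 32 d, 0.24% lower in EM+E2 and 0.0% in E2. With shares this low the absence of calls does not set the listed genes apart. In DMSO 8 of the 21 rose from 16 to 32 d, where 1.68% of all genes did. From 32 to 64 d 11 rose and 1 fell, where 10.4% of all genes rose and 10.8% fell.

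Oocyte and maternal chromatin genes, 22 IDs, included 14 lower and 3 higher in EM at 64 d (median -1.43). Of all genes 17.6% were lower and 13.6% higher, a share that the 3 higher genes do not stand above. Genes near 0 CPM in EM, such as npm2a, passed the low-count filter through libraries in which they are high. The count of 14 is therefore a description, and the falling genes named next were picked by the smallest p there. The maternal histone chaperone gene npm2a fell from 32.7 ± 9.57 to 0.0498 ± 0.0705 CPM (-9.03, SE 1.03, adjusted p 0.00217), the DNA methyltransferase gene DNMT1 from 600 ± 258 to 46.5 ± 5.29 CPM (-3.73, SE 0.50, adjusted p 0.00222) and h2ax, a histone variant gene of DNA repair, from 55.9 ± 4.66 to 13.03 ± 3.29 CPM (-2.15, SE 0.30, adjusted p 0.00226). Among those that rose, named after their values were seen, were MACROH2A2 (1.04, adjusted p 0.00723) and SSRP1 ENSDARG00000016994 (1.5, adjusted p 0.0113). SSRP1 ENSDARG00000037397 fell (-2.93, adjusted p 0.00921), so the copies of SSRP1 moved in opposite directions. In EM+E2 15 fell and 2 rose (median -1.41), where 16.9% of all genes were lower and 13.6% higher. The 2 that rose do not stand above that share. In E2 none was called (median -0.79), where edgeR called 0.00468% of all genes. In DMSO 12 rose and 2 fell from 32 to 64 d, against 10.4% and 10.8% of all genes.

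Oocyte growth and transcription factor genes, 8 IDs, all fell in EM at 64 d (median -6.93), where 17.6% of all genes fell. LHX8 fell from 96.2 ± 32.9 to 1.90 ± 0.285 CPM (-5.70, SE 0.59, adjusted p 0.00217), bmp15 from 83.4 ± 28.1 to 0.304 ± 0.134 CPM (-8.07, SE 0.92, adjusted p 0.00217) and GDF9 from 39.4 ± 21.4 to 0.304 ± 0.134 CPM (-6.99, SE 0.94, adjusted p 0.00222). In EM+E2 5 of 8 fell (median -3.57), where 16.9% of all genes did. In E2 none was called (median -1.18), where edgeR called 0.00468% of all genes. All 9 egg envelope genes fell in EM (median -11.34), zp2.2 from 430 ± 138 to 0.155 ± 0.0778 CPM (-11.41, SE 1.41, adjusted p 0.00222), zp3c from 330 ± 125 to 0.205 ± 0.00735 CPM (-10.59) and zp3a.2 from 1113 ± 685 to 0.354 ± 0.204 CPM (-11.59). In EM+E2 6 of 9 fell (median -3.46), against the same 16.9% of all genes. At 32 d in EM 4 of 5 tested envelope genes and 1 of 3 tested factors were lower, where 0.217% of all genes were. At the time the 4 oocyte genes rose in DMSO, from 16 to 32 d, 8 of 9 envelope genes and 2 of 8 factors rose too, where 1.68% of all genes did. Genes of these lists that were near 0 CPM in a group passed the low-count filter through the libraries in which they are high. Their counts are therefore descriptions.

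**Figure D5:**
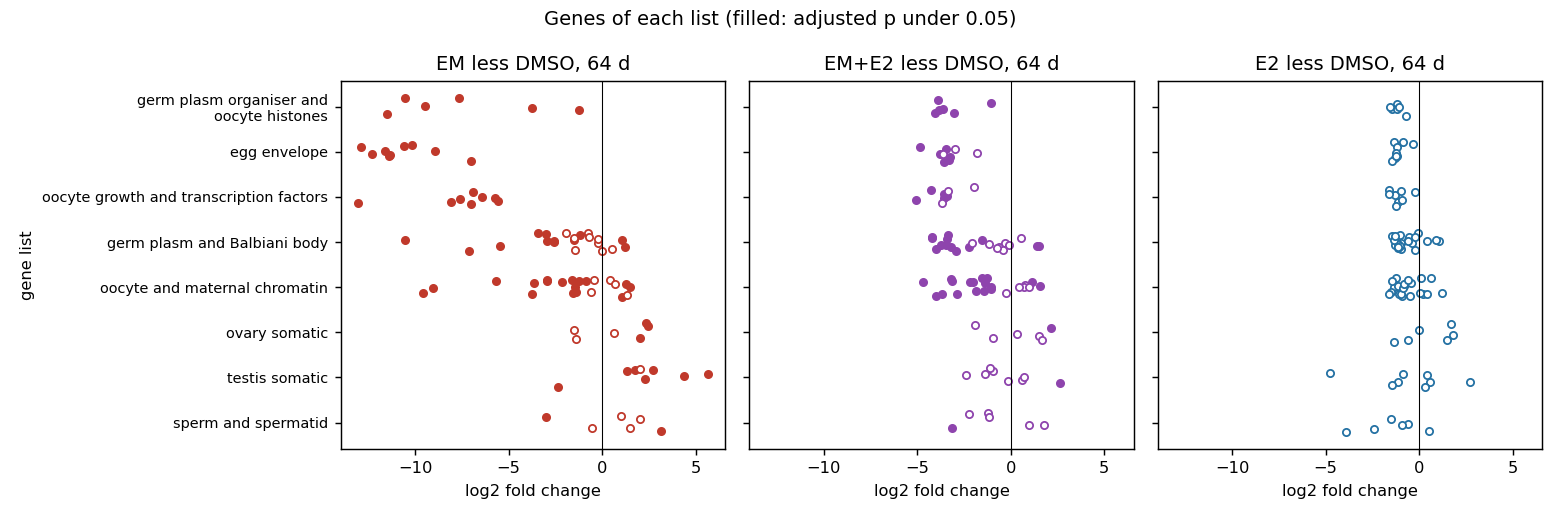
Log2 fold change from DMSO at 64 d of each gene of the germ plasm organiser and oocyte histone set and of the other gene lists, in EM, EM+E2 and E2, with filled points for an adjusted p under 0.05. In EM the egg envelope genes (median -11.34) and the oocyte factors (median -6.93) lie far below 0, germ plasm and chromatin genes spread to both sides, and testis somatic genes lie mostly above 0 (median 2.16).

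The levels of gonad cell type markers at 64 d are set beside these differences. In DMSO at 2 d the testis somatic markers already summed to 172 to 204 CPM and the ovary somatic markers to 24.3 CPM. Whole-body sums of these 2 lists are therefore not levels of gonad cells alone. The summed level of the 9 egg envelope genes was 2085 to 6323 CPM in DMSO, 1842 to 1846 CPM in E2, 1.57 to 2.29 CPM in EM, and 23.8 and 700 CPM in the 2 EM+E2 libraries, with zp2.1 and zp2.3 at 0 in EM. The 10 testis somatic markers summed to 39.5 to 103 CPM in DMSO and to 104 to 114 CPM in EM, where 6 of 8 tested rose and 1 fell (median 2.16), to 55.1 to 59.4 CPM in E2 and to 58.6 to 62.2 CPM in EM+E2. The Sertoli cell hormone gene amh was at 0.614 ± 0.322 CPM in DMSO and 13.8 ± 3.55 CPM in EM (4.39, SE 0.61, adjusted p 0.00223), and at 1.02 ± 0.73 CPM in E2. It is 1 of the 6 that rose and does not stand for the list, in which 1 gene fell. It passed the low-count filter through libraries in which it is high, so its call is a description. The 9 ovary somatic markers summed to 6.69 to 17.8 CPM in DMSO and 26.0 to 30.2 CPM in EM, with 3 of 6 tested higher, to 21.4 to 22.7 CPM in E2 and to 19.3 to 24.3 CPM in EM+E2. The 7 sperm and spermatid markers summed to 22.5 to 62.3 CPM in DMSO, 20.9 to 26.4 CPM in EM, 8.20 to 9.64 CPM in E2 and 7.14 to 9.34 CPM in EM+E2, and in EM 1 of 6 tested rose and 1 fell. Of all genes 13.6% rose and 17.6% fell in EM at 64 d, and the sperm and spermatid counts are near these shares. Listed at 0 in both libraries of a group were the follicle hormone receptor gene FSHR in EM, the aromatase gene CYP19A1 and insl3 in E2, and CYP19A1, FSHR and 1 of the NR5A1 genes in EM+E2. The part of these cell types in the levels of the 6 IDs was not tested.

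The genes that flank the 4 oocyte genes on their chromosomes were looked up by gene order. In the GRCz12tu assembly buc lies on chromosome 2, org on 22, h1m on 5 and h2af1o on 1. Within 2 genes on either side 7 neighbours were tested in EM at 64 d, and none was called, where 17.6% of all genes were called lower and 13.6% higher. The other flanking genes were not matched to the count table or were too low to test. With 7 genes this does not show that the flanks were unaffected. Around buc, rnf152 was at 4.70 and 5.89 CPM in DMSO and EM (log2 fold change 0.21, adjusted p 0.762), xkr4 at 1.99 and 5.22 CPM (1.39, adjusted p 0.0917) and gad3 at 1.65 and 1.23 CPM (-0.44, adjusted p 0.605). Around org, lingo3a was at 1.42 and 2.62 CPM (0.90, adjusted p 0.411) and oaz1a at 262 and 268 CPM (-0.04, adjusted p 0.917). The neighbour of h1m, ephb4a, was at 7.86 and 15.7 CPM (0.98, adjusted p 0.058), and that of h2af1o, creg1, at 28.1 and 13.6 CPM (-1.18, adjusted p 0.134).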

How the data were processed

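The authors deposited a table of raw counts, reads per Ensembl gene for 32520 genes in 56 libraries, and a second table of normalized signal (32266 genes). In the deposited signal 100.0% of values were whole multiples of 1 step per column within 0.01, as counts divided by 1 factor per library are, so whole reads could be recovered. The tables share 27913 genes and differ in depth, with 1.09 to 2.37 raw reads per recovered read (median 1.5), and the raw counts were the main values. Per the submitters' processing notes the genome build was GRCz11, and the tools named are HISAT2 2.0.5, HTSeq 0.9.1, SAMtools 1.5, Picard, FastQC 0.11.8 and MultiQC 0.9. Libraries mark strand per the labels, but the annotation and the strand setting of the counting are not given in the sources used here, so reads of overlapping genes, and of near copies such as the RBPMS2 genes, may be split among them.

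Replicate 2 of EM+E2 at 2 d has the same raw counts as replicate 3 of EM+E2 at 16 d in 32520 of 32520 genes. It was left out as a copy, and 55 libraries were used. The sample labels give DMSO per litre in another unit than the protocol, so its dose is not printed. Replicate numbers are those in brackets in the sample titles. The other number in the title differs from it in both EM+E2 libraries of 64 d, where they are crossed, and in the EM libraries numbered 3 at 8 and 16 d. Depth ranged from 4039030 to 10144213 reads, and 20791 to 24882 genes had a read.

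Counts were tested with edgeR 4.0.16 (R 4.3.3): filterByExpr with a minimum count of 10 and total of 15, TMM scaling and the quasi-likelihood F test. Each age was fitted with its 4 treatments, each treatment with its 5 ages, and 32 and 64 d together for the change of an effect. Adjusted p-values were obtained by the Benjamini-Hochberg method across every gene tested in a contrast, and genes were called at an adjusted p under 0.05. SE is the log2 fold change over the square root of F. Shares, correlations and exact intervals were computed with Python 3.11.15, NumPy 2.4.6, pandas 2.3.3 and SciPy 1.17.1. Alternatives were RLE scaling, the replicate block, no filter, DESeq2 1.42.0, recovered reads, all ages and treatments in 1 fit and each library left out. Library-size scaling and shares of 4 genes were added after seeing the data. The scripts were tested on simulated data.

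The genes and lists were chosen with earlier results of these data known. The lists were germ plasm and Balbiani body, oocyte growth and transcription factors, oocyte and maternal chromatin, egg envelope, ovary somatic, testis somatic, and sperm and spermatid. Named genes were the listed genes, up to 3 per list with the smallest p in EM against DMSO at 64 d, the 5 most like by mean r and the 3 most like each gene, and marker genes set beside a result. The symbols came from the supplied name table, which named 29201 genes, and h2af1o from a synonym. Sequences of the genes were not used here. Some genes that the rule or a count takes in are not reported here.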

Additional observations from a re-analysis of the deposited data

Results flagged for a closer look

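The EM effect on the RBPMS2 gene ENSDARG00000079578 differed between the ages: the log2 fold change of EM against DMSO at 64 d less that at 32 d was -3.01 (SE 0.62, adjusted p 0.00715 with edgeR's quasi-likelihood test). Both EM libraries of 64 d, at 26.1 and 28.0 CPM, were under the 3 DMSO libraries (231 to 451 CPM), while the EM libraries of 32 d, at 35.5 to 38.4 CPM, overlapped those of DMSO (35.4 to 54.1 CPM). The call ended without EM 64 d replicate 1 (-3.00, adjusted p 0.0658) or replicate 2 (-3.01, adjusted p 0.0618).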

How the results depend on the processing

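Counts below are of the 6 gene IDs called. With library-size scaling EM and EM+E2 at 32 d each went from 3 to 0, where 0 of all genes were called. E2 at 32 d went from 0 to 1 with the replicate block, 1 without the filter, and 3 with DESeq2 or all ages in 1 fit. Over all genes these settings called 13, 13, 158 and 90. DESeq2 called 1 in E2 at 64 d, 3 in EM+E2 against EM at 64 d (as did 1 fit), 1 in EM+E2 against E2 at 64 d and 1 in DMSO from 8 to 16 d, all 0 with edgeR. Recovered reads gave 2, not 1, in DMSO from 2 to 8 d, where 5933 of all genes were called. EM+E2 from 32 to 64 d went from 2 to 0 with the replicate block (buc 6.68, adjusted p 0.291, and h1m 7.68, adjusted p 0.14) and to 4 without the filter or in 1 fit. Over all genes these settings called 32, 191 and 220. The replicate block also ended the calls of buc and h1m in EM+E2 at 64 d (-4.56 and -3.97, adjusted p 0.0593 and 0.0615). Over all genes, E2 against DMSO at 64 d went from 1 call to 1211 with the replicate block and to 415 with recovered reads. Same-numbered libraries had a median correlation of -0.0185 at 32 d and -0.00834 at 64 d. With so few libraries per group this cannot show whether the numbers pair them.

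Leaving out 1 library, counts ranged from 0 to 3 in EM at 32 d, 0 to 3 in E2 at 32 d, 0 to 4 in EM+E2 at 32 d, 4 to 6 in EM and 2 to 6 in EM+E2 at 64 d. Over all genes the calls at 32 d ranged from 0 to 96 in EM, 0 to 156 in E2 and 0 to 118 in EM+E2. Fits of EM+E2 against EM or E2 at 64 d were left with 1 library in a group, so their counts are not given. In DMSO from 2 to 8 d the count was 0 without DMSO 8 d replicate 1 or 2. In EM+E2 from 32 to 64 d it was 0 without any 1 library of 32 d. For the change of the EM, E2 and EM+E2 effects the range was 0 to 1 each. The rises in DMSO kept 4 calls from 16 to 32 d and 5 from 32 to 64 d, and E2 from 32 to 64 d kept 3 or 4. Shares differed in sign when only the 4 oocyte genes were summed: h1m -0.678 and h2af1o -1.73 percentage points, and, with at least 20 reads, org -2.35 and h2af1o -10.33 percentage points, none past the test. The cause of these changes was not tested. Depth limits the groups with few reads: EM at 64 d had 4 reads of h2af1o and 11 of h1m.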
